A study of Mus musculus with 18 samples.

Results

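The genes followed here act in antigen presentation and were measured in mouse leukemic erythroid cells: H2-K1, H2-D1, B2m, Tap1, Tap2, Tapbp, Nlrc5, Ciita, H2-Aa and Cd74. Their rows were found by gene symbol, and each has a row in both deposited tables, so they are 10 of 30651 distinct symbols over both tables. The cells were the TgSpi1 erythroleukemic line numbered 763, bone marrow cells of a mouse carrying an Spi1 transgene, grown with erythropoietin (EPO). Spi1 encodes the transcription factor SPI1 (PU.1). All groups carry the same doxycycline-inducible hairpin against Spi1. Experiment 1 held an untreated group (Exp1_NoDox) and a group given doxycycline for 48 h (Exp1_Dox). Experiment 2 held 4 groups: DMSO, the vehicle, without doxycycline (NoDox_DMSO) or with 48 h of it (Dox_DMSO), and 3 µM entinostat for 6 h without (NoDox_Entinostat) or with 48 h of doxycycline (Dox_Entinostat). Entinostat inhibits the histone deacetylases HDAC1 and HDAC3. Each group had 3 libraries that the labels call biological replicates. A single line was used, and a group given doxycycline with a control hairpin was not analysed here, so an effect of doxycycline itself and of lower Spi1 cannot be told apart.

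MHC class I molecules show peptides from inside the cell to CD8 T cells. Their heavy chains, here H2-K1 and H2-D1, pair with the light chain B2m and are loaded in the endoplasmic reticulum with peptides that the transporter TAP (Tap1 and Tap2) pumps in, with the help of tapasin (Tapbp). NLRC5 is the transcriptional activator of class I genes. MHC class II molecules, such as the one that contains the H2-Aa alpha chain, show peptides taken up from outside to CD4 T cells. They travel with the invariant chain Cd74, depend on the activator CIITA (Ciita), and are known mainly from B cells, dendritic cells and macrophages.

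Promoters of 6 of the 10 genes were found in the RefSeq promoter table (build GRCm38.p6, 250 bases before to 50 after the start of a gene), and 4 of those 6 hold a spaced pair of motifs, TGACG followed after 20 or 21 bases by ATTGG. These are letters known from the X2 and Y boxes to which NLRC5 and CIITA are recruited through DNA-binding partners. The stretches are shown because they are the shared feature of these promoters that finding them by symbol did not use. Each is printed 5′ to 3′ on the strand of the gene. Capitals mark TGACG and ATTGG, the NF-kappaB-like GGGATTCCC, and AANNGAAA on either strand, which is a core of interferon response elements.
H2-K1, chr17:34000354-34000473, minus strand: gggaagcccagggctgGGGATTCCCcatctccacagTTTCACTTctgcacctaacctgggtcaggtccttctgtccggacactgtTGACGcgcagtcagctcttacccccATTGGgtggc
H2-D1, chr17:35262908-35263027, plus strand: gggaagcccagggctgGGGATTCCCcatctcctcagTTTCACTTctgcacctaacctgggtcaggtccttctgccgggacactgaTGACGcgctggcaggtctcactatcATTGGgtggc
B2m, chr2:122147524-122147643, plus strand: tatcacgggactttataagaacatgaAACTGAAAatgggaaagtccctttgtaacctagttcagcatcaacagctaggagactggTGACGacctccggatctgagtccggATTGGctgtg
H2-Aa, chr17:34287862-34287982, minus strand: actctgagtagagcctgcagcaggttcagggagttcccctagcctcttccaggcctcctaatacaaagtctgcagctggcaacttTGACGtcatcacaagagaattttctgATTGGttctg
The pair was searched on both strands. With a gap of 20 bases it lies in 31 of 32851 promoters of the table (0.0944%) and with a gap of 21 bases in 23 (0.0700%). H2-K1, H2-D1 and B2m hold it with 20 bases and H2-Aa with 21. The promoters of Tap1 and Tapbp do not hold the spaced pair in the window. The single motifs are common: TGACG lies in 20.8% of promoters and AANNGAAA in 23.9%, while GGGATTCCC lies in 0.353%. A match describes the letters and is not evidence of binding.

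The depth of a library lay between 82.7 and 114 M counts in experiment 1 and between 43.1 and 48.9 M counts in experiment 2. Levels are counts per M counts (CPM) scaled by TMM, and all tests are edgeR's quasi-likelihood test, two-sided, with Benjamini-Hochberg adjustment over all genes tested and a threshold of 0.05. A gene was called when its adjusted p was under that threshold. Spi1 checked the labels: its mean level was 431 ± 44.9 CPM in Exp1_NoDox and 130 ± 4.82 in Exp1_Dox (SD, n = 3), 237 ± 32.2 in NoDox_DMSO and 96.9 ± 34.2 in Dox_DMSO, and 394 ± 150 in NoDox_Entinostat and 131 ± 31.7 in Dox_Entinostat. It fell with doxycycline by 1.73 on the log2 scale in experiment 1, by 1.29 in DMSO and by 1.59 in entinostat (edgeR adjusted p = 0.000828, 0.0264 and 0.00722). In DMSO that call was lost without NoDox_DMSO 2 or 3 or without Dox_DMSO 1 or 3 (adjusted p = 0.0507 to 0.0903). A pair of libraries stood apart. The first NoDox_Entinostat library correlated more with the first Dox_Entinostat library (0.976) than with its own group (median 0.971). The first Dox_DMSO library correlated about as well with the first NoDox_DMSO library (0.979) as with its own group (median 0.980). The deviations of these libraries from their group means correlated at 0.780 with each other. Values without both are given beside the results of experiment 2.

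Markers of the labelled cell type were abundant. The 14 erythroid markers summed to 3838 to 3988 CPM in NoDox_DMSO and 3897 to 4350 in NoDox_Entinostat, and to 5257 to 6380 in Dox_DMSO and 6205 to 8216 in Dox_Entinostat. Markers of cell types that carry class II molecules were low in DMSO without doxycycline and higher with entinostat there. The B cell list (7 of 10 markers in the table of experiment 2) summed to 0.0655 to 0.0869 CPM in NoDox_DMSO, with Pax5 at 0, and to 0.778 to 1.66 in NoDox_Entinostat and 0.440 to 0.682 in Dox_Entinostat, where Cd79b and Pax5 were at 0. The macrophage list (8 of 10) summed to 2.92 to 3.17 CPM in NoDox_DMSO and 5.63 to 11.5 in NoDox_Entinostat, most of it Cd68. The dendritic cell list (8 of 10) summed to 3.93 to 5.42 and 7.04 to 8.15 CPM, most of it Zbtb46, with Ccr7, Flt3, Fscn1, Itgax and Siglech at 0 in NoDox_DMSO. With doxycycline the DMSO and entinostat groups overlapped in both lists. The macrophage list summed to 1.64 to 2.51 CPM in Dox_DMSO and 2.33 to 3.77 in Dox_Entinostat, and the dendritic cell list to at least 9.28 in Dox_DMSO and to 10.8 to 14.5 in Dox_Entinostat, within the range of Dox_DMSO. Every library with doxycycline was above every library without it in the dendritic cell list. Lists of other cell types were also higher with entinostat: the T and NK cell list (7 of 10) went from at most 0.135 CPM in NoDox_DMSO to 0.908 to 1.17 in NoDox_Entinostat, and the stromal and endothelial list (7 of 10) from 0.337 to 0.742 up to 3.68 to 9.95 CPM. The part of these cell types in the results below was not tested. In bulk RNA, fewer cells with a transcript and less of it per cell cannot be told apart.

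Set per length, as CPM per kb of merged exons (GENCODE M21), the class I genes were abundant and the class II genes nearly silent. In NoDox_DMSO B2m had 287.7 ± 11.6 CPM per kb (SD, n = 3), H2-D1 69.2 ± 0.951 and H2-K1 27.9 ± 1.23. Tap2 had 13.9 ± 0.415 and Tapbp 13.1 ± 0.869, which overlapped, and Tap1 had 6.04 ± 0.608. Nlrc5 lay far lower, at 0.186 ± 0.0189 CPM per kb, and Cd74 at 0.105 ± 0.0234. Ciita and H2-Aa had no count. With entinostat, Cd74 reached 1.29 ± 0.36 CPM per kb in NoDox_Entinostat and overlapped there with Nlrc5, at 0.938 ± 0.107. In Exp1_NoDox the order differed in that H2-K1, at 12.9 ± 1.23 CPM per kb, lay below Tap2 (15.1 ± 0.144) and Tapbp (18.4 ± 0.879), Tapbp lay above Tap2, and Cd74 (0.192 ± 0.0325) lay above Nlrc5 (0.0669 ± 0.0253). H2-K1 and H2-D1 belong to a family of near-identical genes: 8.79% and 14.3% of their 50-base exon windows occur in other genes too, so their single values are uncertain. The experiments were tabulated apart, and levels are compared across them only as a description.

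**Figure D1:**
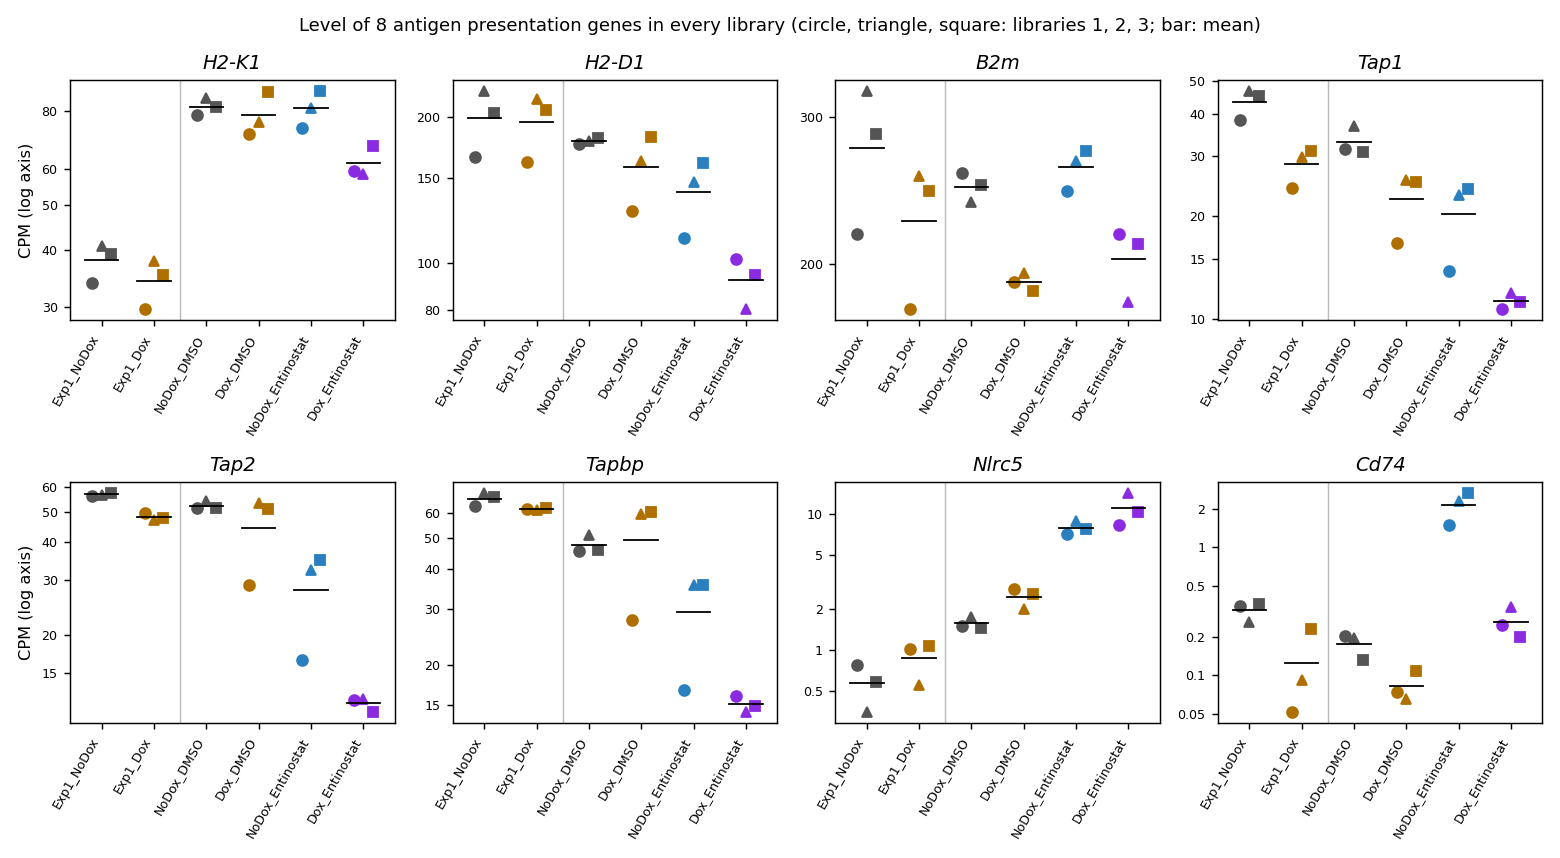
Level in CPM (log axis) of the 8 tested genes in the 18 libraries, by group; symbols mark libraries 1, 2 and 3 and bars the group means, with experiment 1 left of the grey line. Nlrc5 and Cd74 are higher in NoDox_Entinostat than in NoDox_DMSO, and Tap1, Tap2 and Tapbp are lowest in Dox_Entinostat, while the first libraries of Dox_DMSO and NoDox_Entinostat lie below their groups for Tap2 and Tapbp.

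Nlrc5 (chr8:94434356-94527272, plus strand, mm10), the class I activator, rose with entinostat. Its level was 1.51, 1.76 and 1.46 CPM in NoDox_DMSO and 7.14, 8.94 and 7.82 CPM in NoDox_Entinostat. With doxycycline it was 2.80, 2.01 and 2.58 CPM in DMSO and 8.30, 14.35 and 10.48 CPM in entinostat. Every entinostat library lay above every DMSO library. The rise was 5.05-fold without doxycycline (log2 fold change 2.34 ± 0.24 SE, edgeR adjusted p = 1.03e-05) and 4.48-fold with it (2.16 ± 0.23, adjusted p = 1.21e-05). Without the 2 libraries that stood apart these log2 fold changes were 2.40 and 2.26.

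Reads from a short stretch of Nlrc5 cannot be separated from those of an antisense partner, since the library kit does not keep the strand. The exons of 9330175E14Rik, on the opposite strand, share 78 bases (0.918%) with those of Nlrc5. That transcript ran from 0.109 to 0.195 CPM in NoDox_DMSO, from 1.92 to 2.96 in NoDox_Entinostat and from 3.78 to 5.64 in Dox_Entinostat. Its part in the Nlrc5 counts was not tested.

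Doxycycline was followed by higher mean levels of Nlrc5 that were not called. In experiment 1 it had 0.78, 0.35 and 0.57 CPM without and 1.01, 0.55 and 1.07 CPM with doxycycline, and the groups overlapped. The log2 fold change was 0.63 ± 0.37 (edgeR adjusted p = 0.369) there, 0.64 ± 0.24 in DMSO (adjusted p = 0.129) and 0.47 ± 0.22 in entinostat (adjusted p = 0.126). With libraries paired by replicate number the value of experiment 1 was called (0.63 ± 0.17, adjusted p = 0.0119).

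Ciita (chr16:10480059-10528418, plus strand), the class II activator, was at the limit of detection. In experiment 2 it had 0 counts in all 3 NoDox_DMSO libraries, 0, 1 and 0 in Dox_DMSO, 2, 2 and 3 in NoDox_Entinostat, and 0, 0 and 1 in Dox_Entinostat. Its sum of 7 counts in NoDox_Entinostat is above the 3 counts that a count of 0 over a group allows. That limit covers counting error only, and leaves out the error of the 7 counts themselves. Exons of Ciita share 329 bases (3.45%) with those of Dexi on the opposite strand, and the part of Dexi in these counts was not tested. In experiment 1, whose table has no value under 1, Ciita was at 1 in every library. It did not pass the filter on low counts and was not tested.

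The class I heavy chains were lowest with both agents. H2-K1 (chr17:33996017-34000347, minus strand) had 78.38, 85.58 and 81.74 CPM in NoDox_DMSO and 71.44, 75.64 and 88.25 CPM in Dox_DMSO. It had 73.49, 81.38 and 88.69 CPM in NoDox_Entinostat and 59.29, 58.39 and 67.13 CPM in Dox_Entinostat. The 3 libraries given both agents were the lowest of the 12. The fall with entinostat in the presence of doxycycline was 0.35 ± 0.14 on the log2 scale (log2 fold change -0.35, edgeR adjusted p = 0.0492). The call was lost under RLE factors (edgeR adjusted p = 0.0613), with library size alone (-0.21, adjusted p = 0.268) and when any of 10 of the 12 libraries was left out. It held in 5 of 19 alternative settings. Entinostat without doxycycline gave a log2 fold change of -0.01 (95% interval -0.32 to 0.30). Without the 2 libraries that stood apart, the log2 fold change of H2-K1 with entinostat was 0.05 (edgeR adjusted p = 0.7) without doxycycline and -0.42 (adjusted p = 0.00247) with it, and doxycycline in entinostat was called (-0.47, adjusted p = 0.0016).

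H2-D1 (chr17:35262730-35267499, plus strand) had 175.97, 178.51 and 180.88 CPM in NoDox_DMSO and 128.08, 162.64 and 182.23 CPM in Dox_DMSO. It had 112.86, 146.71 and 160.61 CPM in NoDox_Entinostat and 102.03, 80.35 and 94.69 CPM in Dox_Entinostat. Again the 3 libraries with both agents lay below all others, and the NoDox_Entinostat libraries all lay below those of NoDox_DMSO. That difference was not called (log2 fold change -0.35 ± 0.18, edgeR adjusted p = 0.138; without the 2 libraries that stood apart -0.22, adjusted p = 0.112). H2-D1 fell with entinostat in the presence of doxycycline (log2 fold change -0.77 ± 0.18, edgeR adjusted p = 0.00291) and with doxycycline in entinostat (-0.60 ± 0.18, adjusted p = 0.0346). The latter call was lost when any of 7 libraries was left out (adjusted p up to 0.158). Without the 2 libraries that stood apart it was -0.74 (edgeR adjusted p = 8.08e-05), and the fall with entinostat in the presence of doxycycline was -0.91 (adjusted p = 6.43e-06).

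B2m (chr2:122147686-122153083, plus strand), the light chain, differed by doxycycline and hardly by entinostat. It had 256.67, 236.87 and 248.78 CPM in NoDox_DMSO and 190.33, 194.98 and 185.42 CPM in Dox_DMSO. It had 244.62, 265.38 and 273.12 CPM in NoDox_Entinostat and 216.78, 179.71 and 211.08 CPM in Dox_Entinostat. The groups with and without doxycycline did not overlap, but the difference was not called in DMSO (log2 fold change -0.38 ± 0.15, edgeR adjusted p = 0.157) or in entinostat (-0.37 ± 0.15, adjusted p = 0.0836). Both were called without the 2 libraries that stood apart (-0.38, adjusted p = 0.0199, and -0.41, adjusted p = 0.00512), and DESeq2 called both (adjusted p = 0.0143 and 0.0144). With library size alone the one in entinostat was called (-0.51, edgeR adjusted p = 0.0299). For entinostat the log2 fold change of B2m was 0.08 without doxycycline (95% interval -0.24 to 0.40) and 0.09 with it (-0.23 to 0.41).

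In experiment 1, H2-K1 had 33.86, 40.79 and 39.20 CPM without and 29.64, 37.72 and 35.27 CPM with doxycycline. B2m had 217.20, 322.38 and 286.01 CPM without and 176.32, 254.44 and 244.64 CPM with doxycycline. H2-D1 had 165.73, 226.47 and 203.82 CPM without and 161.37, 217.74 and 206.53 CPM with doxycycline. In these 3 genes the first library was the lowest of each group, and the groups overlapped. None was called, with log2 fold changes of -0.15 ± 0.12 for H2-K1, -0.03 ± 0.16 for H2-D1 and -0.29 ± 0.20 for B2m (edgeR adjusted p = 0.545, 0.956 and 0.435). With libraries paired by replicate number, H2-K1 and B2m were called (adjusted p = 0.016 and 0.000128) and H2-D1 was not (adjusted p = 0.556).

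The peptide-loading genes were lower with entinostat, most of all with doxycycline as well. Tap2 (chr17:34203527-34216321, plus strand), a subunit of the transporter, had 51.44, 54.22 and 51.56 CPM in NoDox_DMSO and 28.96, 53.32 and 50.96 CPM in Dox_DMSO. It had 16.56, 32.44 and 34.99 CPM in NoDox_Entinostat and 12.33, 12.41 and 11.27 CPM in Dox_Entinostat. The first library of Dox_DMSO and of NoDox_Entinostat lay well below the other 2 of its group, and the Dox_Entinostat libraries were the lowest of all. Tap2 fell with entinostat by 0.90 ± 0.27 on the log2 scale without doxycycline (edgeR adjusted p = 0.0141) and 3.70-fold with it (log2 fold change -1.89 ± 0.28, adjusted p = 0.000106). With doxycycline in entinostat it fell 2.33-fold (-1.22 ± 0.27, adjusted p = 0.00988), a call lost without NoDox_Entinostat 3 (adjusted p = 0.0519) or Dox_Entinostat 3 (adjusted p = 0.0505). The call for entinostat without doxycycline was lost with library size alone (-0.64, adjusted p = 0.101). These 3 log2 fold changes of Tap2 without the 2 libraries that stood apart were -0.64, -2.13 and -1.49 (edgeR adjusted p = 6.06e-05, 1.22e-09 and 1.06e-07).

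Tapbp (chr17:33915899-33929292, plus strand), tapasin, was also lowest with both agents, while its mean was 47.6 CPM in NoDox_DMSO and 49.3 in Dox_DMSO. It had 45.53, 51.20 and 45.98 CPM in NoDox_DMSO and 27.70, 59.74 and 60.55 CPM in Dox_DMSO. It had 16.68, 35.67 and 35.62 CPM in NoDox_Entinostat and 15.98, 14.26 and 14.86 CPM in Dox_Entinostat. The first Dox_DMSO library lay below the NoDox_DMSO libraries and the other 2 above them. Tapbp fell 3.28-fold with entinostat in the presence of doxycycline (log2 fold change -1.71 ± 0.31, edgeR adjusted p = 0.000476). Entinostat without doxycycline gave -0.70 ± 0.30 (adjusted p = 0.0765), which was called without the first Dox_DMSO library (adjusted p = 0.0183). Doxycycline in entinostat gave -0.96 ± 0.31 (adjusted p = 0.0396), a call lost when any of 8 libraries was left out (adjusted p up to 0.156). These 3 log2 fold changes of Tapbp without the 2 libraries that stood apart were -2.01, -0.42 and -1.25 (edgeR adjusted p = 1.73e-09, 0.00196 and 3e-07), and doxycycline in DMSO was called (0.34, adjusted p = 0.0157).

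Tap1 (chr17:34187553-34197225, plus strand), the other subunit of the transporter, was the only one of the 8 tested genes called in experiment 1. It had 38.50, 46.84 and 45.17 CPM without and 24.29, 29.82 and 31.23 CPM with doxycycline, and the groups did not overlap. The fall was 1.53-fold (log2 fold change -0.61 ± 0.13, edgeR adjusted p = 0.0279). It was not called without Exp1_NoDox 2 or 3 or without Exp1_Dox 2 or 3 (adjusted p = 0.0616 to 0.126), and was called with libraries paired by number (adjusted p = 6.32e-06).

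In experiment 2 Tap1 had 31.46, 36.90 and 30.86 CPM in NoDox_DMSO and 16.75, 25.64 and 25.22 CPM in Dox_DMSO. It had 13.78, 23.14 and 24.04 CPM in NoDox_Entinostat and 10.65, 11.94 and 11.18 CPM in Dox_Entinostat. Each agent alone gave libraries below those of NoDox_DMSO, and the libraries with both agents were lower still. Doxycycline in DMSO gave a log2 fold change of -0.55 ± 0.22 (edgeR adjusted p = 0.169), which was called without the 2 libraries that stood apart (-0.38, adjusted p = 0.0177) and with libraries paired by number (-0.58, adjusted p = 0.0327). Tap1 fell with doxycycline in entinostat (-0.85 ± 0.22, adjusted p = 0.0201, lost without any of 5 libraries) and with entinostat without doxycycline (-0.70 ± 0.22, adjusted p = 0.0193, lost without NoDox_DMSO 2 at 0.0723 and with library size alone at -0.44 and 0.179). With doxycycline present the fall with entinostat was 2.0-fold (-1.0 ± 0.22, adjusted p = 0.00189). These 3 log2 fold changes of Tap1 without the 2 libraries that stood apart were -1.07, -0.49 and -1.18 (edgeR adjusted p = 2.07e-06, 0.00151 and 3.09e-07).

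Exons of Tap1 share 212 bases (3.87%) with Psmb9 on the opposite strand. Psmb9 ran from 37.5 to 42.5 CPM in NoDox_DMSO and from 43.0 to 73.3 in NoDox_Entinostat. It ran from 47.2 to 54.7 CPM in Dox_Entinostat, where Tap1 was lowest. With doxycycline in DMSO Psmb9 was lower, as Tap1 was, at 13.7 to 25.6 CPM in Dox_DMSO. Both were also lower in Exp1_Dox than in Exp1_NoDox, with Psmb9 at 10.3 to 15.8 and 19.9 to 29.8 CPM. The part of Psmb9 in the counts of Tap1 was not tested. Exons of Tapbp share 904 bases (24.9%) with Gm19412 on the opposite strand, at most 0.594 CPM in any library, and 149 bases (4.11%) with Zbtb22 on the same strand. Zbtb22 ran from 21.5 to 23.5 CPM in NoDox_DMSO and from 12.2 to 13.4 in Dox_Entinostat. Its part in the counts of Tapbp was not tested.

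In experiment 1, Tap2 had 56.46, 56.78 and 57.52 CPM without and 49.74, 46.98 and 47.58 CPM with doxycycline. The groups did not overlap, and the log2 fold change of -0.24 ± 0.07 was not called (edgeR adjusted p = 0.0758). With libraries paired by number Tap2 was called (adjusted p = 0.00113). Tapbp had 63.12, 69.34 and 67.45 CPM without and 61.96, 61.25 and 62.09 CPM with doxycycline, and was not called in either fit (-0.11 ± 0.07, adjusted p = 0.434 unpaired and 0.0627 paired).

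Cd74 (chr18:60803848-60812652, plus strand), the invariant chain of class II, was near the limit of detection in DMSO and had its highest levels with entinostat alone. Its counts were 9, 9 and 6 in NoDox_DMSO (0.20, 0.20 and 0.13 CPM) and 3, 3 and 5 in Dox_DMSO (0.07, 0.06 and 0.11 CPM). They were 71, 127 and 144 in NoDox_Entinostat (1.49, 2.32 and 2.67 CPM) and 11, 15 and 9 in Dox_Entinostat (0.25, 0.34 and 0.20 CPM). NoDox_Entinostat stood above all other groups, and Dox_Entinostat overlapped with NoDox_DMSO. Cd74 passed the filter on low counts only through NoDox_Entinostat, so its fold changes are given as a description. In that group it was 12.1-fold higher than in NoDox_DMSO (log2 fold change 3.60 ± 0.36) and 8.20-fold higher than in Dox_Entinostat (doxycycline effect -3.04 ± 0.35). Between the groups with doxycycline Cd74 was 3.11-fold higher with entinostat (1.64 ± 0.45). Without the 2 libraries that stood apart these log2 fold changes were 3.80, -3.24 and 1.56. Marker sums did not all move with it from Dox_Entinostat to NoDox_Entinostat. The macrophage list rose from 2.33 to 3.77 CPM up to 5.63 to 11.5. The B cell list rose from 0.440 to 0.682 up to 0.778 to 1.66, and its highest marker was Ebf1 (means 0.217 and 0.489). The sum of the dendritic cell list was lower, at 10.8 to 14.5 CPM in Dox_Entinostat and 7.04 to 8.15 in NoDox_Entinostat. Most of that sum was Zbtb46 (means 11.7 and 5.97 CPM). Ccr7, Fscn1 and Itgax of the same list went the other way, at 0 in Dox_Entinostat and with counts in NoDox_Entinostat. The T and NK cell list was lower too, at 1.43 to 1.70 and 0.908 to 1.17 CPM. The stromal and endothelial list overlapped between these groups, at 2.44 to 4.71 and 3.68 to 9.95 CPM.

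In experiment 1 Cd74 had 29, 29 and 32 counts without doxycycline and 5, 9 and 20 with it, groups that did not overlap. It passed the filter there through Exp1_NoDox alone, so the log2 fold change of -1.39 ± 0.49 is a description too, and it was -2.15 without Exp1_Dox 3. For doxycycline in DMSO the value was -1.07 ± 0.47.

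H2-Aa (chr17:34282744-34287823, minus strand), the class II alpha chain, had 0 counts in all 6 DMSO libraries, 2, 9 and 14 in NoDox_Entinostat, and 3, 0 and 0 in Dox_Entinostat. Over the groups, NoDox_Entinostat was at least 7.27-fold higher than NoDox_DMSO, taking 3 counts over the group as the limit of a count of 0. H2-Aa did not pass the filter on low counts. Fits without that filter gave entinostat without doxycycline an adjusted p of 0.00406 (edgeR) and 0.0347 (DESeq2). H2-Aa had counts in experiment 2 only with entinostat, so these values are a description and give no support. In experiment 1 it was at 1, the lowest value of that table, in every library.

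**Figure D2:**
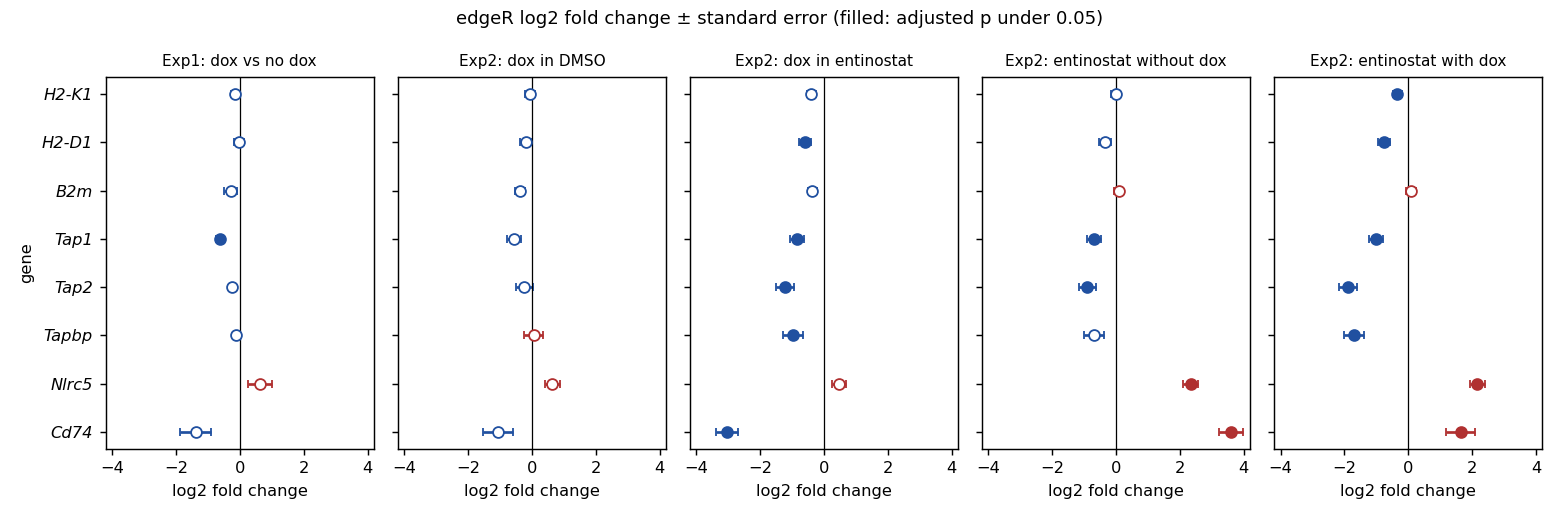
Log2 fold change (x axis) with its standard error for the 8 tested genes in 5 comparisons; filled points have an adjusted p under 0.05. With entinostat, Nlrc5 and Cd74 lie right of 0 and Tap1, Tap2 and Tapbp left of 0 (for Cd74 the points are a description), and with doxycycline the points of experiment 1 and of DMSO are open apart from Tap1 in experiment 1.

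Counted over the 8 tested genes, doxycycline called 0 up and 1 down in experiment 1, where 13.6% of all genes tested were called (5.26% up and 8.36% down). In DMSO it called 0 of 8, beside 9.31% of all genes (3.77% up, 5.53% down). At an unadjusted p under 0.05 the count in DMSO was 4 (B2m, Tap1, Nlrc5 and Cd74), and DESeq2 called 1. In entinostat doxycycline called 0 up and 5 down, beside 24% of all genes (8.96% up, 15.1% down). Entinostat called 2 up and 2 down without doxycycline, beside 47.2% of all genes (30.3% up, 16.9% down), and 2 up and 5 down with it, beside 63.7% (33.9% up, 29.9% down). The 4 of 8 called with entinostat alone is a share near that background. These counts and the medians below include Cd74, which the filter let through for its level in NoDox_Entinostat or Exp1_NoDox, so they describe the 8 genes and give no support. The median log2 fold change of the 8 genes and of all genes tested was -0.20 and 0.02 in experiment 1, -0.21 and 0.05 for doxycycline in DMSO, -0.73 and -0.08 for doxycycline in entinostat, -0.18 and 0.07 for entinostat without doxycycline, and -0.56 and 0.14 for entinostat with doxycycline.

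These counts move with the design of the fit. With libraries paired by number, 6 of 8 genes, Cd74 among them, were called in experiment 1 (1 up, 5 down). In that fit 50.9% of all genes were called (26.1% up, 24.7% down), 7027 against 1881 without pairing. Doxycycline in DMSO called 3 of the 8 genes when the 2 libraries that stood apart were left out (Tap1 and B2m down, Tapbp up), beside 31.3% of all genes in that fit (17.4% up, 13.9% down).

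Whether the doxycycline effect differed between entinostat and DMSO was tested as an interaction, the log2 fold change in entinostat minus that in DMSO. With all 12 libraries none of the 8 genes was called by edgeR or DESeq2, beside 0.272% of all genes (0.166% up, 0.106% down). At an unadjusted p under 0.05 there were 3: Tap2 (-0.98 ± 0.38) and Tapbp (-1.02 ± 0.43), both with an edgeR adjusted p of 0.314, and Cd74 (-1.96 ± 0.61), whose value is a description. Without the 2 libraries that stood apart, 5 of the 7 genes other than Cd74 were called by edgeR, all with a lower value in entinostat: Tapbp (-1.59, adjusted p = 2.67e-06), Tap2 (-1.49, 2.81e-06), Tap1 (-0.69, 0.00183), H2-D1 (-0.69, 0.00276) and H2-K1 (-0.47, 0.0175). Cd74 had -2.24. In that fit 7972 genes in all were called, 51.5% of those tested (21.5% up, 30% down), against 41 with every library, so the outcome for the peptide-loading genes rests on these libraries. B2m and Nlrc5 were called in neither fit (interaction 0.01 ± 0.21 and -0.17 ± 0.32 with all libraries).

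**Figure D3:**
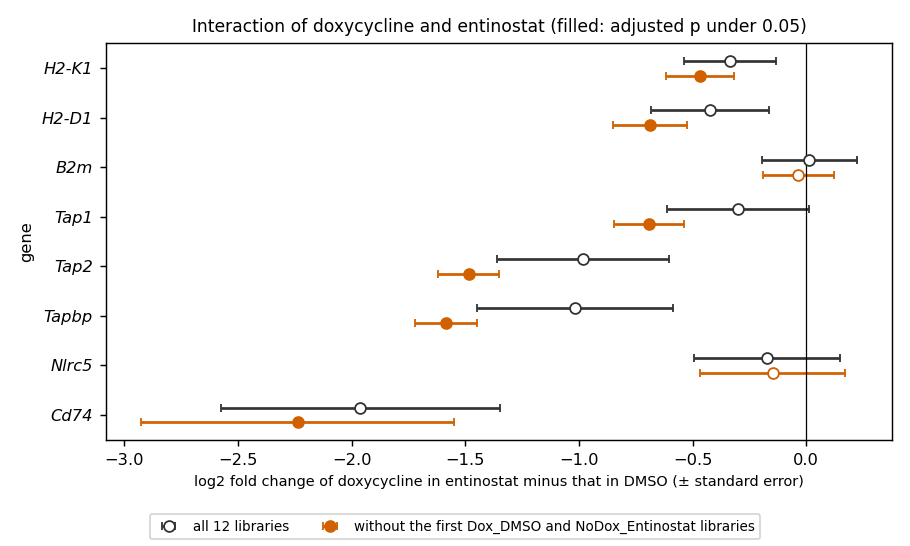
Interaction of doxycycline and entinostat for the 8 tested genes, as log2 fold change of doxycycline in entinostat minus that in DMSO (x axis, ± standard error), with all 12 libraries and with the first library of Dox_DMSO and of NoDox_Entinostat left out. Filled points have an adjusted p under 0.05: none with all libraries and 6 without the 2 libraries, Cd74 as a description among them, of which Tapbp is at -1.59 and Tap2 at -1.49.

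The other genes of the class I pathway, a list of 30 symbols, moved in several directions. Doxycycline called 0 up and 5 down of 26 tested in experiment 1 (13.6% of all genes were called there), 1 up and 4 down of 29 in DMSO (9.31%), and 0 up and 13 down of 29 in entinostat (24%). Entinostat called 9 up and 3 down without doxycycline (47.2%) and 12 up and 6 down with it (63.7%). With each library left out in turn these counts of called genes ran, in that order, from 1 to 5, 2 to 7, 2 to 15, 10 to 12 and 15 to 20. A gene can pass the filter on low counts through 1 of the 2 groups compared. Of the class I genes called, 0, 2, 1, 3 and 5 in that order did not reach the filter level in all 3 libraries of both groups (Fcgrt, H2-T3, Cd1d1, H2-Q2, H2-Q6 and H2-Q7 in 1 or more comparisons), so the counts describe the list. The list medians in that order were -0.11, -0.17, -0.51, 0.03 and 0.21, beside the medians of all genes given above. Of the 3 immunoproteasome subunits, which cut peptides for class I, 3 fell with doxycycline in experiment 1, 2 in DMSO and 1 in entinostat. Psmb8 went from 117 ± 20 to 63.9 ± 12 CPM in experiment 1 (SD, n = 3; log2 fold change -0.88, edgeR adjusted p = 0.0278) and from 108 ± 10 to 56.9 ± 19 CPM in DMSO (-0.93, adjusted p = 0.0407). In entinostat Psmb8 had -0.78 (edgeR adjusted p = 0.0452). Psmb9 fell in experiment 1 (-0.94, adjusted p = 0.04) and in DMSO (-1.13, adjusted p = 0.0111) and had -0.08 in entinostat (adjusted p = 0.809). Psmb10 fell in experiment 1 (-0.61, adjusted p = 0.0208) and had -0.66 in DMSO (adjusted p = 0.142) and 0.15 in entinostat (adjusted p = 0.654). The Psmb8 call was lost with any of 4 of 6 libraries left out in experiment 1 and any of 7 of 12 in DMSO, and that of Psmb10 with any of 3 of 6. The Psmb9 call in DMSO was lost with any of 2 of 12 left out (edgeR adjusted p up to 0.056). The calls of Psmb9 in experiment 1 and of Psmb8 in entinostat were not checked this way.

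Hfe, a class I-like protein that regulates iron uptake, was called in all 5 comparisons. It went from 2.42 ± 0.035 to 0.94 ± 0.021 CPM with doxycycline in experiment 1 (log2 fold change -1.36, edgeR adjusted p = 0.00159) and from 3.48 ± 0.46 to 1.1 ± 0.25 CPM in DMSO (-1.62, adjusted p = 0.000392). With entinostat it rose to 15.9 ± 3.2 CPM without doxycycline (2.19, adjusted p = 7.43e-06) and to 7.85 ± 0.28 CPM with it (2.79, adjusted p = 1.61e-06).

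Among non-classical class I genes, H2-T23, which encodes the Qa-1 heavy chain, rose with entinostat without doxycycline from 16.9 ± 0.42 to 29.5 ± 0.7 CPM (log2 fold change 0.80, edgeR adjusted p = 0.000414) and fell with doxycycline in entinostat (-0.59, adjusted p = 0.0121). Mr1, which presents vitamin B metabolites, rose with entinostat without doxycycline (1.17, adjusted p = 4.08e-05) and with it (0.83, adjusted p = 0.000339). The H2-Q and H2-T genes share sequence, so single values are uncertain. Erap1, which trims peptides in the endoplasmic reticulum, went from 78.2 ± 27 to 18.4 ± 3.8 CPM with entinostat in the presence of doxycycline (-2.09, adjusted p = 0.000136). Psme3, a proteasome activator subunit, fell with entinostat without doxycycline (-0.99, adjusted p = 0.000941) and with it (-1.41, adjusted p = 6.28e-05). Lnpep, an aminopeptidase of cross-presentation, fell with doxycycline in entinostat (-0.82, adjusted p = 0.0201).

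Of the other genes of the class II pathway, 9 were tested in experiment 1 and 10 in experiment 2. Entinostat called 7 up and 1 down without doxycycline (47.2% of all genes were called) and 6 up and 3 down with it (63.7%). Doxycycline called 2 up and 4 down in experiment 1 (beside 13.6%), 1 up and 3 down in DMSO (9.31%), and 0 up and 4 down in entinostat (24%). With each library left out in turn the doxycycline counts ran from 3 to 6, 2 to 5 and 3 to 8, and both entinostat counts from 7 to 10. Among these calls H2-Oa, H2-Ob and Cd80 had a group below the filter level in 1 or more comparisons, so the counts and medians describe the list. Genes over that level in both groups gave, with entinostat, 6 up and 1 down of 9 without doxycycline. With doxycycline they gave 4 up and 3 down of 8. The list medians were -0.05, -0.17 and -0.50 for doxycycline in experiment 1, DMSO and entinostat, and 1.40 and 1.57 for entinostat without and with doxycycline. Those that rose with entinostat include lysosomal enzymes and a costimulatory ligand with roles beyond class II. Cd80, a ligand for CD28 on T cells, went from 1.03 ± 0.17 CPM in NoDox_DMSO to 42.2 ± 1.4 in NoDox_Entinostat (SD, n = 3; log2 fold change 5.35, edgeR adjusted p = 4.17e-08) and from 0.269 ± 0.03 in Dox_DMSO to 13.4 ± 3.3 in Dox_Entinostat (5.62, adjusted p = 4.07e-08). The protease Lgmn went from 4.02 ± 0.32 to 69.5 ± 15 CPM without doxycycline (4.11, adjusted p = 8.54e-07), and the cathepsin Ctsl from 29.7 ± 3.4 to 159 ± 4.3 CPM (2.42, adjusted p = 2.11e-06). Cathepsin D (Ctsd) fell with entinostat in the presence of doxycycline (-0.97, adjusted p = 0.000761).

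H2-DMa, a chain of the peptide-exchange factor of class II, fell with doxycycline in experiment 1 (log2 fold change -0.95, edgeR adjusted p = 0.00275), in DMSO (-0.75, adjusted p = 0.0209) and in entinostat (-0.98, adjusted p = 0.00357). H2-DMa rose with entinostat without doxycycline, from 5.29 ± 0.57 to 11.5 ± 1.7 CPM (1.13, adjusted p = 0.000266). H2-Oa, a chain of the inhibitor of that factor, went from 1.0 ± 0.33 to 0.0399 ± 0.052 CPM with doxycycline in DMSO and from 3.22 ± 0.18 to 0.322 ± 0.14 CPM in entinostat, values given as a description since it passed the filter through the groups without doxycycline. Cd80 fell with doxycycline in DMSO (-1.93, adjusted p = 0.000327) and in entinostat (-1.65, adjusted p = 0.000231). Ifi30, a lysosomal thiol reductase, rose with doxycycline in experiment 1 (1.09, adjusted p = 0.00176) and in DMSO (0.80, adjusted p = 0.019), and the cathepsin Ctsb in experiment 1 (0.80, adjusted p = 0.0208).

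Of the regulators of MHC genes, doxycycline called 1 up and 2 down of 26 tested in experiment 1 (beside 13.6% of all genes), 0 in DMSO by edgeR and by DESeq2 (3 at an unadjusted p under 0.05; 9.31% of all genes called), and 0 up and 5 down in entinostat (24%). Entinostat called 5 up and 3 down without doxycycline (47.2%) and 4 up and 14 down with it (63.7%). With each library left out in turn the counts ran, in that order, from 0 to 3, 0 to 1, 0 to 13, 6 to 10 and 14 to 18. The list medians in that order were 0.00, 0.06, -0.32, 0.05 and -0.48. In both entinostat comparisons the same 1 of the regulators called up passed the filter only through the entinostat groups. The counts and medians therefore describe the list. Regulators over the filter level in both groups gave 4 up and 3 down without doxycycline and 3 up and 14 down with it. Irf1, an interferon-induced activator of class I genes, went from 6.32 ± 1.4 to 13.3 ± 2 CPM with entinostat without doxycycline (SD, n = 3; log2 fold change 1.07, edgeR adjusted p = 0.00151) and from 4.85 ± 0.66 to 13.1 ± 2.7 CPM with it (1.43, adjusted p = 0.000165). Usp18, a brake on interferon receptor signalling, rose without doxycycline (2.29, adjusted p = 1.75e-05) and with it (1.52, adjusted p = 0.000215). Nfyb, a subunit of the factor that binds the Y box, went from 55.9 ± 1.9 to 33.3 ± 4 CPM without doxycycline (-0.74, adjusted p = 0.00173) and from 58.9 ± 6.6 to 26 ± 3.5 CPM with it (-1.18, adjusted p = 5.33e-05). Ifnar2, a chain of the type I interferon receptor, fell in both (-0.81, adjusted p = 0.00053, and -0.94, adjusted p = 0.000138).

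With doxycycline in entinostat the regulators that fell included Nfkb1 (log2 fold change -1.10, edgeR adjusted p = 0.0132), Jak1 (-1.01, adjusted p = 0.0249) and Rfxap (-0.65, adjusted p = 0.0338). RFXAP and RFX5 are subunits of the complex that binds the X box. In experiment 1 Nfkb1 (-0.61, adjusted p = 0.00713) and Rfx5 (-0.46, adjusted p = 0.014) fell with doxycycline and Relb rose (0.61, adjusted p = 0.019). Of the 11 calls of list genes chosen for naming in experiment 1, 8 were lost with at least 1 library left out, as were 4 of 7 for doxycycline in DMSO, 8 of 12 for doxycycline in entinostat and 0 of 24 for entinostat.

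When the 2 libraries that stood apart were left out, all 43 such calls of experiment 2 kept their direction and stayed under the threshold. Those of H2-Oa are among them, as a description. The genes were chosen by their adjusted p in these same libraries, so this is no independent check. In that fit entinostat called 63.9% of all genes without doxycycline and 77.8% with it. In that fit doxycycline called 31.3% of all genes in DMSO (17.4% up, 13.9% down) and 61.8% in entinostat (26.1% up, 35.7% down). Beside this, the regulators called were 9 up and 1 down in DMSO and 0 up and 18 down in entinostat. The class I list had 1 up and 9 down in DMSO and 4 up and 14 down in entinostat, and the class II list 2 up and 5 down and 0 up and 10 down.

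**Figure D4:**
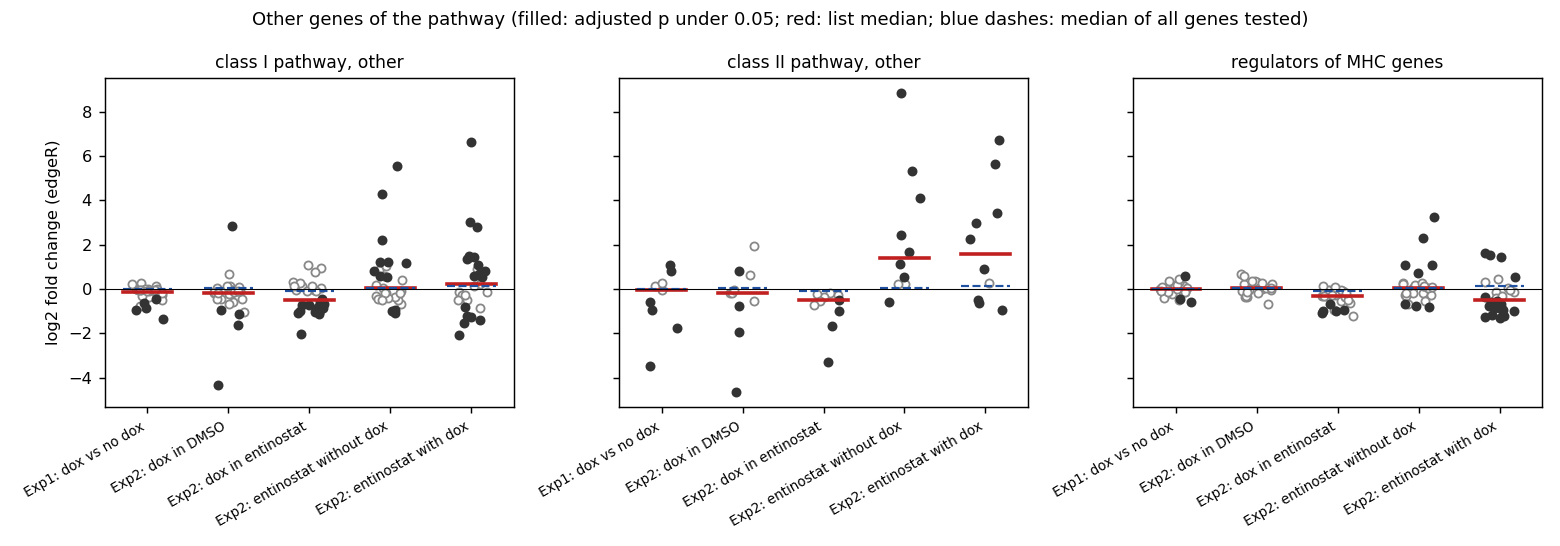
Log2 fold change (y axis) of every tested gene of the 3 lists in 5 comparisons; filled points have an adjusted p under 0.05, red lines are list medians and blue dashes the medians of all genes tested. The class II list has its median at 1.40 and 1.57 with entinostat without and with doxycycline, and the regulators at -0.48 with both agents.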

How the data were processed

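RNA of 18 libraries was sequenced after polyA selection with an unstranded TruSeq v2 kit, per the labels' protocols. The authors deposited raw counts per gene, 1 table for each experiment. bcl2fastq 2.17.1.14, STAR, DESeq2 and mm10 are named without roles per the submitters' processing notes; the counter and annotation are not given in the sources used here. The experiment 1 table has no value under 1, and 3543 of its 25628 rows are at 1 in every library.

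Each experiment was fitted apart with edgeR 4.0.16 in R 4.3.3 (group means, TMM, filterByExpr), which kept 13811 and 15051 genes, 8 of the 10 members among them. SE is the log2 fold change over the root of F. Common BCV (biological coefficient of variation) came to 0.194 and 0.242. Other settings tried were scaling by RLE or by library size alone, DESeq2 1.42.0, no filter, a replicate block, experiment 1 counts minus 1, the 2 groups alone, the first Dox_DMSO and NoDox_Entinostat libraries left out together, and each library left out. List counts under alternatives were added after seeing the data.

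Members and lists were chosen with earlier results of these data known. All members are named; of each list, the 4 called genes with the smallest adjusted p in a comparison and a mean of at least 1 CPM, apart from genes not reported here. Deviations of same-number libraries correlated at 0.829, 0.724 and 0.313 in experiment 1, above the limit of 0.1 for pairing. In experiment 2, 9 of 18 pairs exceeded it, including all 3 pairs of NoDox_DMSO with Dox_DMSO (0.334, 0.267 and 0.102). Pairs with different numbers also exceeded it, 2 of 6 in experiment 1 and 4 of 36 in experiment 2 (up to 0.259 and 0.476). Among them was NoDox_DMSO 2 with Dox_DMSO 3 (0.214). Nothing says what a number stands for, and the labels state no pairing, so the main fit is unpaired although experiment 1 passed the limit. What is called in experiment 1 depends on that choice. Values paired by number are given beside it there for the tested members other than Cd74. The fit was tested on simulated data.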

Additional observations from a re-analysis of the deposited data

How the results depend on the processing

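Over 846 values of the 8 tested genes under 26 alternative settings, 744 kept direction and side of the threshold, 44 were no longer called, 37 became called and 21 changed sign, all of these called in neither fit. The counts of called genes that moved were these. With the replicate block, experiment 1 called 7027 genes and 6 members (1881 and 1 without it), doxycycline in DMSO 1 member (0 without it), doxycycline in entinostat 6115 genes (3614) and the interaction 177 genes (41). DESeq2 called 2 members in experiment 1, 1 in DMSO, and 220 genes in the interaction. With no filter the interaction called 206 genes. With library size alone, entinostat without doxycycline called 2 members rather than 4 (Tap1 -0.44, adjusted p = 0.179, and Tap2 -0.64, adjusted p = 0.101), as the median of all genes moved from 0.07 to 0.32; its calls over all genes were then 5417 up and 1233 down, against 4554 and 2545, and those for doxycycline in entinostat 1107 and 3149, against 1348 and 2266. With the first library of Dox_DMSO and of NoDox_Entinostat left out, doxycycline called 4846 genes and 3 members in DMSO (1401 and 0 with them) and 9569 genes in entinostat, and the interaction called 7972 genes and 6 members. The cause was not tested.

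Leaving out each library in turn gave, for all genes and for members, 684 to 1508 and 0 to 1 in experiment 1, 862 to 1741 and 0 to 0 for doxycycline in DMSO, 994 to 7583 and 1 to 7 for doxycycline in entinostat, 6009 to 8193 and 3 to 5 for entinostat without doxycycline, 8315 to 10947 and 6 to 7 for entinostat with it, and 9 to 3061 and 0 to 3 for the interaction.

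The sign changes were in H2-D1 in experiment 1 (DESeq2 0.0030; leaving out each library -0.13 to 0.098), H2-K1 with entinostat without doxycycline (library size alone 0.24, without the 2 libraries 0.049, leaving out each library -0.084 to 0.050), H2-K1 with doxycycline in DMSO (without the 2 libraries 0.00020, leaving out each library -0.16 to 0.0013), Tapbp with doxycycline in DMSO (replicate block -0.018, leaving out each library -0.12 to 0.34), B2m with entinostat and doxycycline (no filter -0.0057) and the B2m interaction (library size alone -0.10, no filter -0.082, without the 2 libraries -0.034, leaving out each library -0.044 to 0.093). Cd74, Ciita and H2-Aa are limited by counts. DESeq2 gave no adjusted p for some of the rarest genes.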

Other observations

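Genes whose profile over the 12 libraries of experiment 2 lay nearest to that of a member were sought among 9387 tested genes averaging 5 CPM or more, by the root mean square distance between log2 levels centred on each gene's mean. For Nlrc5 these were Reep2 (0.251), Cdh24 (0.259) and Pyroxd2 (0.267), where the median over all genes was 1.33. For B2m they were Akr1a1 (0.0416), Dtnbp1 (0.0789) and Fam111a (0.0932), with a median of 0.517. For Cd74 they were Hdc (0.483), Anxa6 (0.524) and Fam102a (0.573), with a median of 1.55. All profiles come from the same 12 libraries, and these distances are a description.

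The antisense transcript 9330175E14Rik was chosen for a look after its values were seen. It had at most 0.0458 CPM in experiment 1 and 0.368 CPM in the DMSO groups of experiment 2, and at least 1.92 CPM in every entinostat library. Among the class II chains of the list, H2-Eb1 had counts of 7, 11 and 23 in NoDox_Entinostat, 2, 4 and 3 in Dox_Entinostat, and at most 3 in any DMSO library.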
